A study of Mus musculus with 3 samples.

Results

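Mitosis and DNA replication genes were followed through the cell types of the embryonic mouse soft palate. The group held 42 of the 32285 genes in the deposited feature list, and its members were chosen by symbol: 18 genes of DNA replication and 24 genes of mitosis, all of which were found. Soft palate tissue, taken from the posterior part of the palatal region at E14.5, was dissociated and profiled by droplet single-cell RNA sequencing with the 10x 3′ v2 kit in 2 control libraries and 1 mutant library. The strain label of all libraries was C57BL/6. The mutant was Osr2-Cre;Alk5fl/fl, in which the TGF-β receptor gene Tgfbr1 (also called Alk5) is deleted by a Cre active in palatal mesenchyme and not in the myogenic cells. The label of the controls was "control" only. The study gives Tgfbr1 fl/fl or Tgfbr1 fl/+ as the control genotypes, and which of them each control library held, and the sex and number of embryos behind a library, were not given in the sources used here. With 1 mutant library no difference between genotypes could be tested, and such differences are given as values. The 2 controls and the mutant were separate libraries.

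Before a cell divides, the MCM complex is loaded onto origins of replication by Cdc6 and Cdt1, cyclin E opens S phase, and Pcna holds the polymerases on DNA while ribonucleotide reductase (Rrm1, Rrm2) and thymidylate synthase (Tyms) supply nucleotides. In mitosis, Cdk1 with cyclins A and B drives entry, Plk1 and the Aurora kinases act on spindle and centromeres, and the anaphase promoting complex with Cdc20 and Ube2c removes the cyclins. Replication genes are commonly driven by E2F factors. Mitosis genes are commonly driven through CCAAT boxes bound by NF-Y and the cell cycle genes homology region (CHR) bound by the DREAM and MuvB complexes. In developing muscle, Pax7+ and Myf5+ progenitors divide, and myocytes leave the cell cycle as they begin to express Myog and contractile proteins.

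The promoters of both groups carried different short words. RefSeq windows of 300 bases, from 250 bases before to 50 bases after a gene's start (GRCm38.p6), were found for 36 of the 42 genes, and for each the first window was searched on both strands. The CHR word TTTGAA stood in 15 of 21 mitosis windows (71.4%) and in 1 of 15 replication windows (6.67%), against 17.9% of all 32851 windows. A CCAAT word stood in 18 of 21 mitosis windows (85.7%) and in 9 of 15 replication windows (60.0%), against 37.4% of all windows, and both words stood together in 14 mitosis windows (66.7%), against 6.95%. One of the E2F words TTTCGCGC, TTTGGCGC, TTTCCCGC and TTTGCCGC stood in 7 of 15 replication windows (46.7%) and in 1 of 21 mitosis windows (4.76%, Cdk1), against 2.26%. Of the 20 CHR words in mitosis windows, 15 (75%) lay within 50 bases of the start, against 25.3% of 6737 CHR words in all windows. These are letter matches and not measured binding. The 250 bases before the start are shown for 3 mitosis genes that carried both words, and for 2 replication genes that carried E2F words, as RefSeq gives them on the strand of the gene. Top2a (chr11:99024190-99024439, minus strand) encodes the topoisomerase that untangles sister chromatids, Mki67 (chr7:135716380-135716629, minus strand) coats mitotic chromosomes, and Ccnb2 (chr9:70421555-70421804, minus strand) encodes cyclin B2, and their capitals mark CHR and CCAAT words on either strand. Mcm6 (chr1:128359706-128359955, minus strand) and Mcm5 (chr8:75109259-75109508, plus strand) encode subunits of the replicative helicase, and their capitals mark E2F words on either strand, with overlapping matches run together.
Top2a: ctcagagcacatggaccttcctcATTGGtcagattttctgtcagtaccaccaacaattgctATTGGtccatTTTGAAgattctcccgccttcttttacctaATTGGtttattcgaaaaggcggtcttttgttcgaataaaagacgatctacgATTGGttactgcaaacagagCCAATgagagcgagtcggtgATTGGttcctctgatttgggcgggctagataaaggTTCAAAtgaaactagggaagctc
Mki67: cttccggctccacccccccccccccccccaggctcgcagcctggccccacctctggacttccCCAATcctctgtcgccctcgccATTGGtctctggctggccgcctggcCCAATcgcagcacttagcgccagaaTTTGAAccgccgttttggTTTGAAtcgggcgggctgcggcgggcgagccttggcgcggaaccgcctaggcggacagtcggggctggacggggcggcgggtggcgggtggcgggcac
Ccnb2: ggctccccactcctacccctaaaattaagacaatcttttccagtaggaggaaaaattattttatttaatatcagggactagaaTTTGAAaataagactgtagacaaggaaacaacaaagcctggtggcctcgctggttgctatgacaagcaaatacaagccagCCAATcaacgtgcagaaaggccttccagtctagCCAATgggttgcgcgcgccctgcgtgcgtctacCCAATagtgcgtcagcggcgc
Mcm6: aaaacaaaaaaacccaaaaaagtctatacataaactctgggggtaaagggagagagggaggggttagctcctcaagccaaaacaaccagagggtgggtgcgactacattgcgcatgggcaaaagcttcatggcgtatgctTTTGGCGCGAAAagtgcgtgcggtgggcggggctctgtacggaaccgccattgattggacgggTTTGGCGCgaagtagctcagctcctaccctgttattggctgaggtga
Mcm5: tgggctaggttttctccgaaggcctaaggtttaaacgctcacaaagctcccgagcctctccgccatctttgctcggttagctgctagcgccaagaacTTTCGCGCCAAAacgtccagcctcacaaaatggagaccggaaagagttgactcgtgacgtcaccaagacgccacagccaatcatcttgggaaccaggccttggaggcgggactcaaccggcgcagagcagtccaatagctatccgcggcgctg
The Top2a stretch held 2 CHR and 6 CCAAT words, that of Mki67 held 2 and 3, and that of Ccnb2 held 1 and 3. The Mcm6 stretch held 3 E2F words and the Mcm5 stretch 2.

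The libraries held 2816, 4067 and 8690 barcodes and 22624711, 27814907 and 63505144 UMIs in control 1, control 2 and the mutant, and values of the 3 libraries are given in this order throughout. After filters, 2055, 3664 and 7473 cells were kept, with median UMI counts of 8190, 5222.5 and 5033. Pairs of libraries shared 18 to 49 cell barcodes. Cells that passed no gate made up 15.2%, 32.8% and 34.3% of the libraries and entered no comparison between cell types. Cell types were gated by marker genes, which include no member, and each is called "-like" after its markers. In the progenitor gate Pax7 stood at 87.2, 122 and 156 counts per 1000000 UMIs (CPM), and in the myocyte gate Myog stood at 2826, 1416 and 1385 CPM. The neuronal gate was weak in control 1, where Elavl3 and Elavl4 summed to 164 CPM against 862 and 1078 CPM, and the cartilage gate was weak in both controls, where Matn1 was at 0. Control 1 stood apart in transcripts of other cell types. The myocyte transcripts Actc1, Myl4, Mylpf and Tnnt1 summed to 191, 26.2 and 14.3 CPM in mesenchymal-like cells, which should lack them, and to 8816, 4171 and 4294 CPM in myocyte-like cells. Whether these transcripts were free RNA was not tested. A further condition was added to the gates, mesenchymal and erythroid ones apart, after the data were seen. The gate as first planned lacked this condition and is given as an alternative. Tgfbr1 itself stood at 56.2, 63.8 and 50.6 CPM in mesenchymal-like cells, and in epithelial-like cells at 56.2, 58.7 and 56.6 CPM. A 3′ tag can lie outside the deleted exons, so it is no check of the deletion.

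Myogenic progenitor-like cells held the most replication transcripts of the 11 cell types compared, the whole mesenchyme counted as 1 type. Values are UMIs of a gene group summed over the cells of a type and divided by all UMIs of those cells, in CPM, and a 3′ UMI stands for 1 molecule irrespective of length. The 18 replication genes summed to 1641, 1815 and 1528 CPM in progenitor-like cells, first of the 11 types in each of the 3 libraries. Endothelial-like cells came next by median with 1093, 1418 and 858 CPM, a range that did not overlap with that of the progenitors. Epithelial-like cells (967, 984 and 842 CPM), myocyte-like cells (971, 875 and 929 CPM) and mesenchymal-like cells (855, 952 and 783 CPM) overlapped with one another. Erythroid-like cells, with 204, 374 and 491 CPM, and neuronal-like cells, with 1003, 544 and 325 CPM, were the lowest by median, and the high neuronal value belonged to control 1, whose neuronal gate was weak. Mitosis transcripts gave another order. Glial-like cells had the highest median of the 24 mitosis genes (3316, 3289 and 1471 CPM, from only 10, 27 and 118 cells), followed by progenitor-like cells with 2332, 2668 and 2938 CPM, and their ranges overlapped. Mesenchymal-like cells (2015, 2262 and 1829 CPM) overlapped with endothelial-like cells (1825, 2919 and 2027 CPM), myeloid-like cells (1850, 1545 and 2224 CPM) and, in part, epithelial-like cells (1712, 1838 and 1437 CPM). Myocyte-like cells, at 1164, 1726 and 1614 CPM, lay below the progenitor range. In all of these sums a lower level can come from fewer cycling cells or from less of each transcript per cycling cell, which cannot be told apart in a sum.

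**Figure D1:**
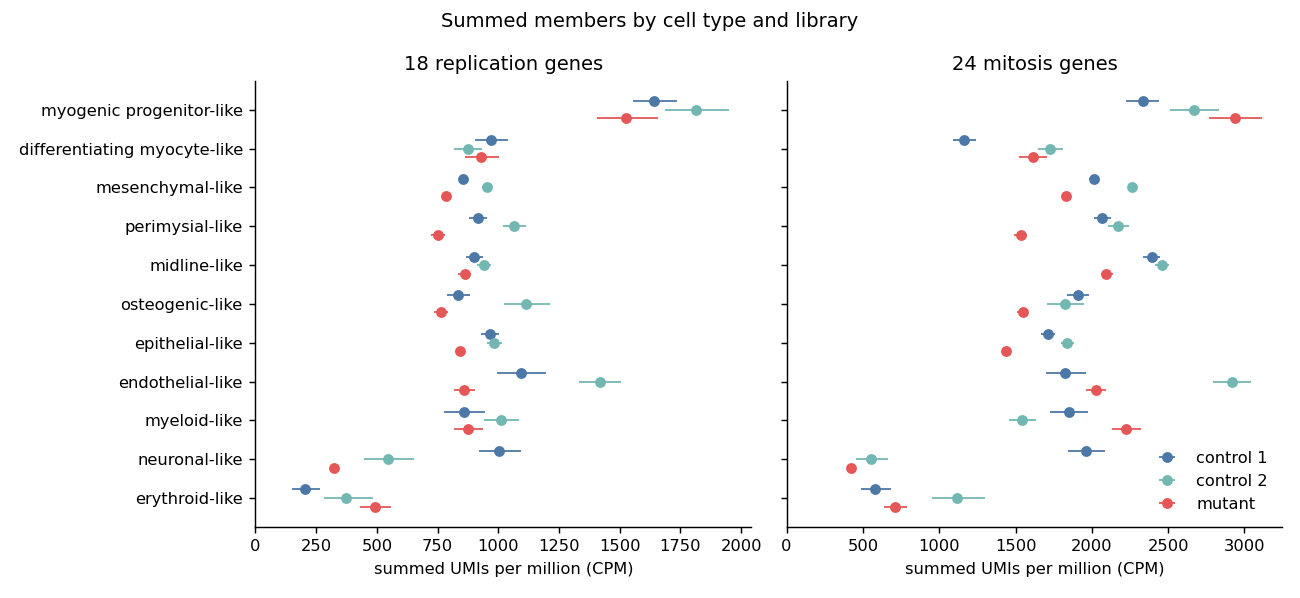
Summed CPM of the 18 replication genes (left) and the 24 mitosis genes (right) on the x axis, from 0, in 11 cell types (perimysial-like, midline-like and osteogenic-like cells are shown beside the whole mesenchyme, and cartilage-like, mural-like and glial-like cells are left out), with 1 point for each library and bars for 95% exact Poisson intervals, which cover counting error only. Progenitor-like cells stand at 1528 to 1815 CPM for replication, above every other type shown in each of the 3 libraries. For mitosis their 2332 to 2938 CPM overlap, of the types shown, only with endothelial-like and midline-like cells.

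Progenitor-like cells differed from mesenchymal-like cells more in the replication genes than in the mitosis genes. This comparison was added after the values were seen and is given as a description without a test. A gene entered when its mean over the libraries reached 20 CPM in either cell type. Of 42 members, 30 were higher in progenitor-like cells in all 3 libraries, against 22.7% of 6371 genes, and 0 were lower in all 3, against 48.1%. Cdc6, Cdt1, Plk1, Bub1 and Bub1b reached this level only in progenitor-like cells. They are among the 30, so their direction was partly set by this rule. In the mutant's progenitor-like cells they had 11, 8, 16, 7 and 17 UMIs. The median log2 difference was 0.56 over the members and −0.30 over all genes. It was 0.90 for the replication genes, of which 17 of 18 were higher in all 3 libraries, and 0.33 for the mitosis genes, of which 13 of 24 were. Mcm4 was the replication gene with mixed directions.

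Cyclin E stood out. Ccne1 (chr7:38097984-38107534, GRCm38), the cyclin that activates Cdk2 at the start of S phase, stood at 224, 248 and 174 CPM in progenitor-like cells against 32.3, 43.0 and 32.4 CPM in the mesenchyme, a log2 difference of 2.59. Its paralogue Ccne2 stood at 68.0, 81.8 and 66.6 CPM against 23, 39.7 and 26.2 CPM (1.32). The values of the cell types did not overlap for either gene. Together both cyclins summed to 241 to 330 CPM in progenitors and to 55.3 to 82.7 CPM in mesenchymal-like cells. In the enzymes of nucleotide supply, Rrm2 stood at 127, 184 and 187 CPM against 61.9, 73.6 and 54.6 CPM (1.38). Ung, which removes uracil from DNA, stood at 69.2, 71.9 and 46.1 CPM against 22.1, 22.4 and 15.5 CPM (1.63). Pcna, the polymerase clamp, stood at 177, 218 and 123 CPM against 91.9, 93.9 and 80.8 CPM (0.92). In each of these 3 genes the lowest progenitor library lay above the highest mesenchymal one. The 8 licensing genes summed to 374 to 456 CPM against 223 to 272 CPM. Slbp, which binds the stem-loop of histone mRNA, was closer, at 193 to 200 CPM against 144 to 176 CPM.

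Among the mitosis genes the difference varied with the role, which was not tested. The cyclins A and B with Cdk1 and Cks2 summed to 613 to 736 CPM in progenitor-like cells against 407 to 463 CPM, and Cdk1 alone stood at 114, 107 and 131 CPM against 66.2, 59.6 and 62.1 CPM (log2 difference 0.90). Genes of kinases, passenger complex and checkpoint summed to 381 to 500 CPM against 276 to 331 CPM. Cdc20 and Ube2c summed to 296 to 402 CPM against 200 to 269 CPM. In all of these roles the ranges did not overlap. Kinetochore genes (Cenpa, Cenpe, Cenpf) summed to 362 to 592 CPM against 391 to 520 CPM. Spindle genes (Kif11, Kif20b, Kif23, Tpx2, Nusap1, Hmmr) summed to 305 to 337 CPM against 259 to 379 CPM. In these last 2 roles the ranges overlapped. So did those of Top2a with Mki67, at 347 to 446 CPM against 263 to 406 CPM. Cdc20, Cenpa, Cenpe, Cenpf, Kif11, Kif20b, Kif23, Tpx2, Nusap1, Top2a and Mki67 had mixed directions over the libraries. Without the mutant library 3 mitosis genes were lower in both controls. Under the gate as first planned 2 mitosis genes in place of 13 were higher in all 3 libraries.

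In myocyte-like cells, which express Myog and contractile genes, 27 of the 42 members were lower than in progenitor-like cells and 0 were higher. The test was edgeR's quasi-likelihood test on UMIs summed per library and cell type with the library as a block, adjusted by Benjamini-Hochberg over 6469 genes, of which 6.62% were called lower and 9.24% higher. The fold change was negative for all 42 members, where 3264 of the 6469 genes had a negative one. The members' median log2 value was −0.73, with a range of −0.10 to −1.47, against a median of −0.00 over all genes. At an unadjusted p under 0.05 in this edgeR test, 36 members were lower and 0 higher. The share of all genes at that p was not computed, so this count is not read as a result about the members. By group, 10 of 18 replication genes and 17 of 24 mitosis genes were called lower.

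Ccne1 fell by 1.09 ± 0.16 on the log2 scale (SE, 3 libraries, adjusted p = 5.49e-07, edgeR), from 224, 248 and 174 CPM in progenitors to 98.6, 92.6 and 93.0 CPM in myocytes. Its myocyte level was still above the 32.3 to 43.0 CPM of mesenchymal-like cells. Ung fell from 69.2, 71.9 and 46.1 CPM to 17.5, 25.2 and 21.6 CPM (log2 −1.47 ± 0.26, adjusted p = 4.27e-05, edgeR). Hells, a chromatin remodeller of replicating DNA, fell from 91.0, 146 and 126 CPM to 42.4, 62.4 and 68.8 CPM (−0.98 ± 0.19, adjusted p = 0.000134, edgeR). Pcna fell from 177, 218 and 123 CPM to 101, 97.6 and 99.8 CPM (−0.70 ± 0.17, adjusted p = 0.00192, edgeR). For these 4 genes every myocyte value lay below every progenitor value. Of the MCM helicase genes, Mcm3 and Mcm6 were called lower, while Mcm2 gave a log2 fold change of −0.10 ± 0.26 (adjusted p = 0.865, edgeR), Mcm5 one of −0.70 ± 0.25 (adjusted p = 0.0501), and Mcm4 and Mcm7 were not called. Gins2, Ccne2, Tyms and Slbp were also called lower, and Cdc6, Cdt1, Rrm1 and Rrm2 were not.

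Genes of every mitosis role were called lower. Birc5, the survivin subunit of the chromosomal passenger complex, fell from 245, 248 and 315 CPM to 114, 171 and 156 CPM (−0.79 ± 0.14, adjusted p = 3.56e-05, edgeR). Top2a fell from 297, 327 and 290 CPM to 160, 183 and 183 CPM (−0.71 ± 0.13, adjusted p = 5.56e-05, edgeR). Neither gene overlapped between the cell types. Cenpf, a kinetochore protein, fell from 85.9, 164 and 192 CPM to 34.9, 82.5 and 104 CPM (−0.95 ± 0.18, adjusted p = 8.24e-05, edgeR), lower in each library although the mutant's myocytes lay above the progenitors of control 1. Cdk1 fell from 114, 107 and 131 CPM to 67.4, 73.5 and 44.5 CPM (−0.81 ± 0.20, adjusted p = 0.00269, edgeR). The proliferation marker Mki67 fell from 50, 119 and 84.6 CPM to 39.9, 53.4 and 37.8 CPM (−0.81 ± 0.23, adjusted p = 0.00946, edgeR). Plk1, Aurka, Bub1, Ccnb2, Kif11, Kif23 and Nusap1 had negative fold changes and were not called. Without the library block 10 members were called lower (of all genes, 2.07%) and with DESeq2 4 were (Birc5, Ccne1, Cenpf and Top2a, with 1.11% of all genes). Leaving out control 1, control 2 or the mutant gave 23, 17 and 18 members (4.36%, 4.23% and 4.92% of all genes). Under the gate as first planned, without the condition added after the data were seen, 4 were called lower (0.812%).

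**Figure D2:**
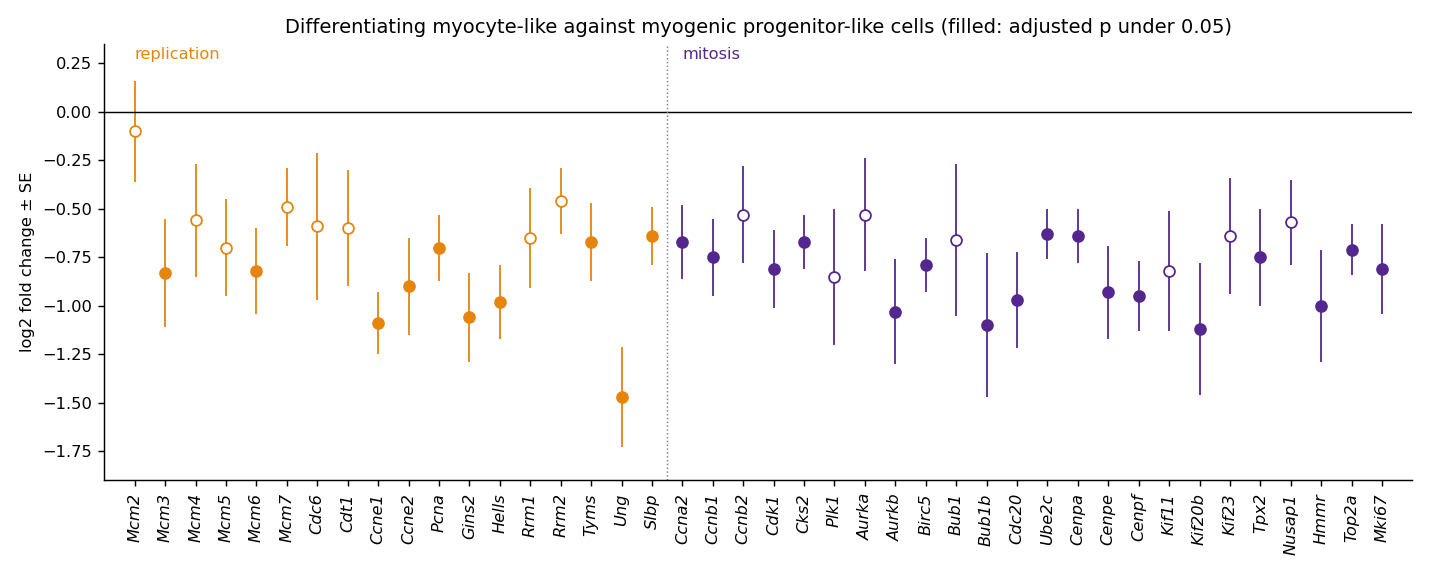
Log2 fold change with its SE (y axis) of each of the 42 members (x axis) between myocyte-like and progenitor-like cells, from edgeR over 3 libraries, with filled points for an adjusted p under 0.05. All 42 points lie below 0, between −0.10 for Mcm2 and −1.47 for Ung, and 27 are filled.

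Of 33 other cell cycle genes, taken from G1 cyclins, inhibitors, E2F and DREAM factors and phosphatases, 23 were expressed enough to be tested here, 3 were called higher and 7 lower. The 3 were Cdkn1a, Rb1 and Cdkn1c. Cdkn1a, the p21 inhibitor of cyclin-dependent kinases, stood at 16.7, 2.48 and 2.56 CPM in progenitors, from 13, 1 and 1 UMIs, and at 585, 262 and 305 CPM in myocytes, from 469, 260 and 226 UMIs. The retinoblastoma gene Rb1 stood at 6.41, 2.48 and 2.56 CPM, from 5, 1 and 1 UMIs, and at 97.3, 74.5 and 67.4 CPM, from 78, 74 and 50 UMIs. Both genes reached the level for testing through the myocytes, and at these progenitor counts no fold is given. Cdkn1c, the p57 inhibitor, rose from 2957, 3068 and 2794 CPM to 7055, 5632 and 5393 CPM (1.12 ± 0.08, adjusted p = 8.34e-15, edgeR). The groups did not overlap for any of the 3 genes. Those that fell were Fbxo5 and Gmnn, which hold back the anaphase promoting complex and Cdt1, Ccnd1 and Ccnd2, which are G1 cyclins, Wee1, E2f3 and E2f4. Gmnn fell by 1.05 on the log2 scale (adjusted p = 0.000246, edgeR) and Ccnd1 by 1.02 (adjusted p = 0.000401). Of the other inhibitors, Cdkn1b gave a log2 fold change of −0.16 ± 0.39 (adjusted p = 0.856, edgeR) and Cdkn2d one of −0.43 ± 0.30 (adjusted p = 0.389), Cdkn2c was too low to be tested, and Cdkn2a and Cdkn2b had 0 UMIs in both cell types.

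Epithelial-like cells had less of several chromosome and kinetochore transcripts than mesenchymal-like cells. In the same test, 9 of 42 members were lower and 2 were higher in the epithelium, where 11.3% of 13493 genes were called lower and 14.3% higher. All 9 lower members were mitosis genes. The fold change was negative for 23 of 24 mitosis genes, where 7039 of the 13493 genes had a negative one. The median was −0.26 on the log2 scale for the mitosis genes, against 0.10 for the replication genes and −0.02 for all genes. Cenpa, the histone variant of centromeres, stood at 149, 164 and 152 CPM in epithelial-like and 243, 267 and 213 CPM in mesenchymal-like cells (−0.69 ± 0.08, adjusted p = 0.00343, edgeR). Birc5 stood at 122, 137 and 118 CPM against 188, 201 and 174 CPM (−0.64 ± 0.07, adjusted p = 0.00329, edgeR). Top2a stood at 159, 223 and 155 CPM against 256, 329 and 212 CPM (−0.63 ± 0.08, adjusted p = 0.00445, edgeR). Cenpa and Birc5 did not overlap between the tissues, and Top2a was lower within each library. Hmmr, Kif20b, Cenpe, Nusap1, Mki67 and Kif23 were the other members called lower. Rrm1, a subunit of ribonucleotide reductase, was higher, at 58.4, 54.9 and 48.4 CPM against 36.0, 42.6 and 34.5 CPM (0.45 ± 0.11, adjusted p = 0.0301, edgeR), as was Ung (0.41 ± 0.11, adjusted p = 0.0439). These calls depended on the libraries. Without control 2, 0 members were called lower (6 at an unadjusted p under 0.05) and 0 higher, without the mutant 5 and 0, and without control 1 10 and 1. Without the library block 2 members were called lower and 0 higher, and DESeq2 gave 5 and 0. The shares of all genes called under these settings are not given, so these counts are not read as a result about the members. Of the other cell cycle genes 6 were higher and 10 lower in the epithelium. Cdkn1a was higher (260, 201 and 154 CPM against 17.4, 18.0 and 24.8 CPM, log2 3.25 ± 0.25, adjusted p = 0.00071, edgeR), and Cdkn1c lower (513, 615 and 909 CPM against 1528, 1163 and 1558 CPM, −1.15 ± 0.15, adjusted p = 0.0051, edgeR). The inhibitors Cdkn1b, Cdkn2c and Cdkn2d were called lower, and Cdkn2a and Cdkn2b higher. Cdkn2b stood at 20.5, 23.5 and 16.3 CPM where mesenchymal-like cells had at most 2.05 CPM. In mesenchymal-like cells Cdkn2b had 22, 7 and 12 UMIs and Cdkn2a 2, 8 and 5. Both genes reached the level for testing through the epithelium, and at these mesenchymal counts no fold is given.

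Perimysial-like cells, the mesenchyme that surrounds the palatal muscles and expresses Hic1, Ebf2, Agtr2 and Foxd1, had few members called against the other mesenchyme. In edgeR's quasi-likelihood test 2 of 42 members were called lower, against 2.55% of 12391 genes, and 0 higher, against 2.78%, a share of members near that of all genes. At an unadjusted p under 0.05 in this test there were 7 members, all mitosis genes. The share of all genes at that p was not computed, so this count is not read as a result about the members. The fold change was negative for 21 of 24 mitosis genes, where 5942 of the 12391 genes had a negative one. The median was −0.21 on the log2 scale for the mitosis genes, against 0.00 for the replication genes and 0.01 for all genes. Cdc20, the activator of the anaphase promoting complex, stood at 42.5, 28.9 and 30.3 CPM against 46.7, 41.9 and 51.8 CPM (−0.57 ± 0.14, adjusted p = 0.0319, edgeR). Cyclin B1 (Ccnb1) stood at 69.2, 59.5 and 51.3 CPM against 76.3, 77.4 and 69.5 CPM (−0.40 ± 0.11, adjusted p = 0.0446, edgeR). Top2a gave a log2 difference of −0.02 ± 0.09 (adjusted p = 0.914). Both calls were lost without control 2, without the mutant, without the library block and with DESeq2 (0 members lower in each), and without control 1 there were 8. Osteogenic-like cells were gated by the bone genes Sp7, Ibsp, Ifitm5, Alpl and Spp1, whose levels were not all alike across the libraries. Sp7 stood at 160, 206 and 184 CPM and Alpl at 161, 239 and 204 CPM. Ibsp stood at 485, 588 and 1218 CPM and Ifitm5 at 102, 185 and 392 CPM. Spp1 stood at 133, 12.6 and 4.18 CPM, in the mutant under the 5.77 CPM of all its cells. Osteogenic-like cells had 2 of 42 members higher, against 8.05% of 12522 genes, and 2 lower, against 6.07%. In both directions the share of members was under that of all genes, so the members as a group did not stand out. Ccne1 was higher, at 40.9, 107 and 44.3 CPM against 31.0, 40.1 and 29.9 CPM in the other mesenchyme (0.87 ± 0.17, adjusted p = 0.00204, edgeR), with control 2 far above the others from 42 cells. Rrm1 was also higher (0.47 ± 0.15, adjusted p = 0.0422), and Cenpa (−0.39 ± 0.13, adjusted p = 0.0496) and Cenpf (−0.40 ± 0.12, adjusted p = 0.0299) were lower. The inhibitor Cdkn1a was higher there too, at 38.8, 65.1 and 87.8 CPM against 14.1, 15.9 and 11.5 CPM (2.42 ± 0.22, adjusted p = 1.8e-06, edgeR). Without the library block 0 members were called in either direction, DESeq2 called 1 higher and 0 lower, and leaving out control 2 left 1 higher and 0 lower, the mutant 1 higher, and control 1 1 lower. For both mesenchymal groups the shares of all genes under the other settings are not given. These counts are therefore not read as a result about the members.

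Cells with mitotic transcripts were present in almost every cell type. A cell was counted when it held at least 3 summed UMIs of Top2a (chr11:98992943-99024189), Mki67 (chr7:135689784-135716361) and Cenpf (chr1:189640606-189688086), a threshold whose sensitivity depends on the depth of the cell. Over all cells 24.9%, 31.4% and 25.5% were counted. Among progenitor-like cells 60.0% of 45, 61.9% of 42 and 52.2% of 46 were counted, with exact 95% Clopper-Pearson intervals of 44.3 to 74.3%, 45.6 to 76.4% and 36.9 to 67.1%. Among myocyte-like cells 34.0% of 50, 27.6% of 105 and 30.0% of 100 were counted, and among epithelial-like cells 38.4%, 44.5% and 39.6% of 177, 326 and 583 cells. Mesenchymal-like cells gave 24.6%, 35.5% and 32.3% of 1136, 1651 and 2932 cells. Neuronal-like cells gave 54.5% of 33, 11.8% of 17 and 7.81% of 333 at median UMI counts of 11697, 11864 and 7215. Whether they had left the cycle was not measured. The share of control 2 was 2 cells, with an interval of 1.46 to 36.4%, at a deeper median than the 7676 UMIs of its progenitors. It gives no background for them, nor does that of control 1, whose neuronal gate was weak. The mutant's neuronal-like cells were close in depth to its progenitors, which had a median of 7914 UMIs. Erythroid-like cells gave 0 of 55 in control 1 at a median of only 1834 UMIs, 12.5% of 16 in control 2 and 16.1% of 62 in the mutant. The 0 of 55 allows a share of up to 5.45% at 3 counts and of up to 6.49% by the exact interval.

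Depth moved these shares. When each cell was thinned to 2000 UMIs, the mesenchymal-like shares were 9.08%, 17.4% and 11.5%, leaving out 2, 51 and 61 shallower cells, the epithelial-like shares 5.78%, 12.6% and 7.12%, leaving out 4, 0 and 7, and the progenitor-like shares 2.22%, 14.3% and 10.9%, leaving out none. The 2.22% was a single cell of control 1, whose progenitors had a median of 16881 UMIs against 7676 and 7914. With replication transcripts included, progenitor-like cells differed again from the types named next. At 2000 UMIs, cells with at least 3 UMIs of neither the replication nor the mitosis members were 17.8%, 11.9% and 15.2% of progenitor-like cells, 55.1%, 61.2% and 51.0% of myocyte-like cells, 56.1%, 46.8% and 54.4% of mesenchymal-like cells and 92.1% of the neuronal-like cells of the mutant. Progenitor-like cells with replication members only made up 33.3%, 21.4% and 23.9%, against 13.7%, 13.2% and 12.2% in mesenchymal-like cells. The progenitor values lay outside the range of these other types in each library. For the share with replication members only, this did not hold against every type. In control 2 osteogenic-like (21.4%), cartilage-like (22.2%), neuronal-like (23.5%) and tendon-like cells (25.0%) reached or exceeded the progenitors, from 42, 36, 17 and 12 cells. In the share with neither, endothelial-like cells of control 2 came closer than the named types, at 25.3%.

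**Figure D3:**
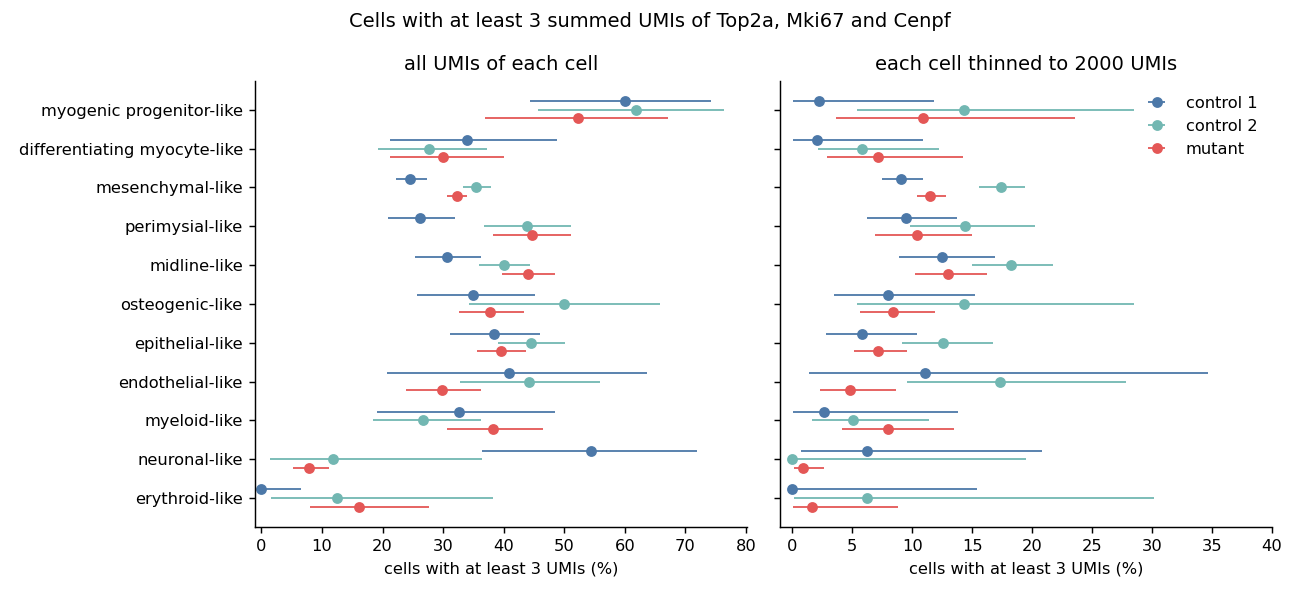
Share of cells with at least 3 summed UMIs of Top2a, Mki67 and Cenpf (x axis, %) in 11 cell types as sequenced (left) and after thinning each cell to 2000 UMIs (right), 1 point for each library with 95% Clopper-Pearson intervals. Progenitor-like cells stand at 52.2 to 61.9% as sequenced and at 2.22 to 14.3% after thinning, where their wide intervals overlap with those of mesenchymal-like cells.

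Within the mesenchyme, cells with mitotic transcripts were compared with cells that had none, as a description, since the grouping uses the readout itself. There were 280, 586 and 946 mesenchymal-like cells with at least 3 UMIs of the 3 genes and 495, 735 and 1606 with 0, and their median UMI counts differed (12061.5, 7416.5 and 8281.5 against 7214, 4896 and 5248.5). The other mitosis genes summed to 3638, 3255 and 2768 CPM in the first and 398, 302 and 201 CPM in the second. The replication genes were far closer, at 1220, 1171 and 945 CPM against 615, 653 and 589 CPM. Over the 39 members outside the 3 genes, the median log2 differences were 4.05 for mitosis and 0.73 for replication genes, against 0.07 over all genes. Of these members, 36 had at least 20 CPM in either group. All 36 were higher in the cells with mitotic transcripts in all 3 libraries, against 41.6% of 5739 genes. Bub1, at 33.4, 49.4 and 27.5 CPM against 1.85, 2.80 and 0.821 CPM, reached this level only in the cells with mitotic transcripts. So did many of the other members, among them Plk1, Bub1b, Ccna2, Ccnb1, Cdk1, Aurka, Nusap1 and Rrm1. Their direction was partly set by this rule. The groups were also formed by other mitosis genes, so this count is no test. Ung, which was under this level, was the only member not higher in all 3 libraries, with log2 differences of 0.13, 0.08 and −0.37. The replication genes split further. Mcm2, a helicase subunit, differed by only 0.19, 0.02 and 0.26, whereas Rrm2 differed by 2.22, 1.87 and 1.99, Tyms by 2.41, 1.75 and 1.49, and Rrm1 by 2.06, 2.0 and 1.64. Enzymes of nucleotide supply followed the mitosis genes more closely than this helicase subunit did. Cdk1 stood at 155, 109 and 119 CPM against 18.0, 15.0 and 10.6 CPM. Of the regulators, Foxm1, a factor of mitosis genes, stood at 28.6, 30.0 and 22.9 CPM against 1.85, 1.27 and 1.23 CPM. The inhibitor Cdkn2c stood at 67.9, 55.0 and 35.5 CPM against 6.61, 4.33 and 1.85 CPM. Both genes reached 20 CPM only in the cells with mitotic transcripts, so their direction was partly set by this rule, and no fold is given. Ccnd2 was lower in the cells with mitotic transcripts in each library, with log2 differences of −0.57, −0.50 and −0.50, as was Ccnd1 (−0.59, −0.18 and −0.30).

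**Figure D4:**
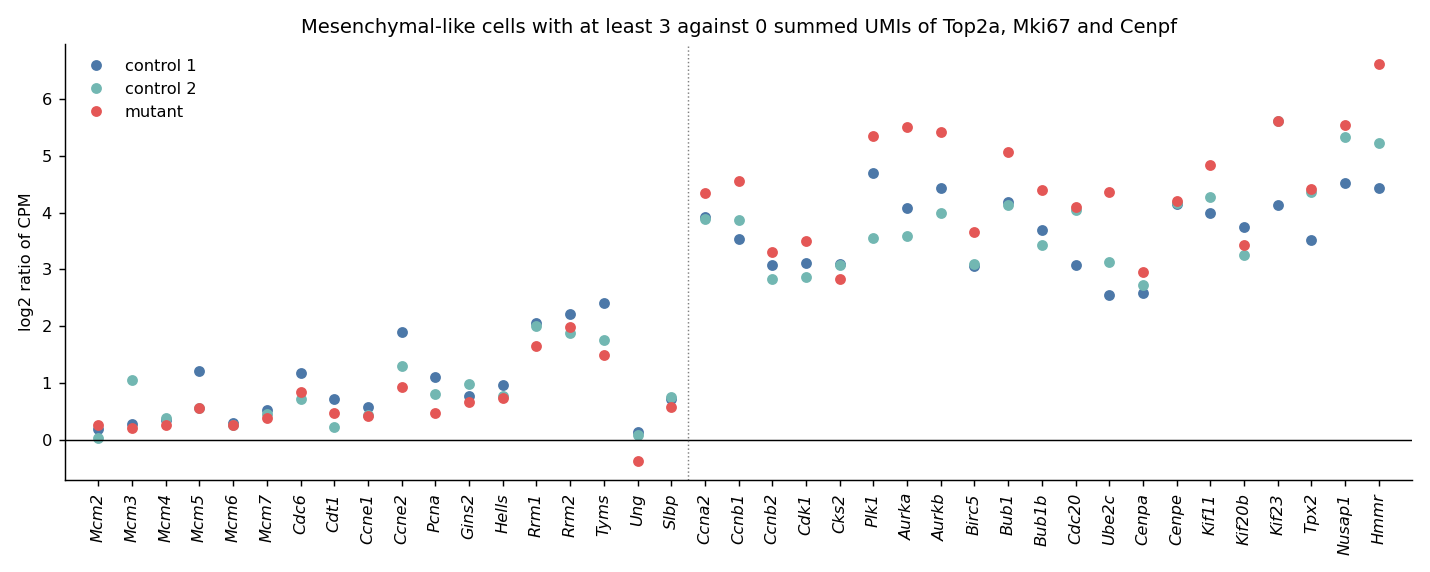
Log2 CPM difference of the members between mesenchymal-like cells with at least 3 and with 0 summed UMIs of Top2a, Mki67 and Cenpf, for each library. Mitosis genes lie far above 0 with a median of 4.05, and replication genes lie lower with a median of 0.73, with Rrm1, Rrm2 and Tyms near the top of their group and Ung on both sides of 0.

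In the mutant, replication and mitosis transcripts in the palatal mesenchyme, the tissue in which Osr2-Cre acts, were below both controls in CPM, by little more than the controls' own gap. The replication genes summed to 855, 952 and 783 CPM in mesenchymal-like cells, a log2 ratio of mutant to controls of −0.20 beside a gap of 0.16 between the controls. The mitosis genes summed to 2015, 2262 and 1829 CPM, a ratio of −0.22 beside a gap of 0.17. With TMM factors these ratios were −0.07 and −0.09. As a mean over cells the mitosis ratio was −0.05. All were smaller than the gaps in CPM. Over all cells of the libraries the ratios in CPM were −0.26 (gap 0.12) for replication and −0.31 (gap 0.16) for mitosis. The direction was thus not particular to the mesenchyme. A member was counted as below or above when its mutant value was lower, or higher, than either control and the log2 ratio exceeded the gap between the controls. Genes had to average 20 CPM over the libraries. Of 37 members that reached this level, 17 were below, against 26.2% of 6037 genes, and 1 was above (Cdc20), against 10.3%. The median log2 ratio was −0.22 over these members and −0.05 over all genes. With TMM factors, which moved the median of all genes from −0.05 to 0.09, 11 were below and 3 above, where 14.9% and 24.1% of all genes were.

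Among the replication genes, Ung stood at 22.1, 22.4 and 15.5 CPM (log2 ratio −0.52, gap 0.02), Tyms at 58.1, 53.8 and 43.3 CPM (−0.37, gap 0.11), and Pcna at 91.9, 93.9 and 80.8 CPM (−0.20, gap 0.03). Mcm5, Mcm6, Mcm7, Rrm2 and Slbp were also below. In each of these genes the mutant was the lowest library. Among the mitosis genes, Aurkb, the kinase of the passenger complex, stood at 35, 35.6 and 27.3 CPM (−0.37, gap 0.03) and Cenpa at 243, 267 and 213 CPM (−0.26, gap 0.14). Top2a stood at 256, 329 and 212 CPM (−0.46), but here the controls differed by 0.36 themselves. Mki67 stood at 61.3, 77.1 and 51.6 CPM (−0.41, gap 0.33). Ccna2, Ccnb1, Aurka, Birc5 and Kif23 were also below. Cenpf, at 102, 182 and 156 CPM, lay between the controls, as did Hells, at 53.1, 98.0 and 83.3 CPM. The share of cells with at least 3 UMIs of Top2a, Mki67 and Cenpf was also between the controls, as sequenced (24.6%, 35.5% and 32.3%) and after thinning (9.08%, 17.4% and 11.5%). With the other mitosis members in place of these 3 genes it was 63.9%, 51.7% and 45.8%, with the mutant lowest, so that the difference from the mean of the controls went from 2.19 to −12.0 percentage points. The count of members below was 5 when the mean over cells replaced the sum, where 25.4% of all genes were below. It was also 5 under the gate as first planned, where 25.7% of all genes were below.

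Of the perimysial-like, midline-like, osteogenic-like and remaining mesenchyme, the perimysial-like cells had the largest ratios. There the mitosis genes summed to 2068, 2174 and 1534 CPM, a log2 ratio of −0.47 beside a gap of 0.07, and the replication genes to 918, 1066 and 752 CPM (−0.40, gap 0.22), from 264, 196 and 240 cells. Midline-like cells gave mitosis sums of 2392, 2460 and 2096 CPM (−0.21, gap 0.04), osteogenic-like cells 1909, 1822 and 1546 CPM (−0.27), and the remaining mesenchyme 1658, 2180 and 1941 CPM, with the mutant between the controls. Whether these mesenchymal groups differ from one another was not tested. In perimysial-like cells Birc5 stood at 188, 189 and 131 CPM, Top2a at 273, 366 and 197 CPM and Mki67 at 66.4, 77.7 and 44.2 CPM, with the mutant lowest in each. Cdk1, at 72.2, 49.8 and 50.6 CPM, lay between the controls. The share of perimysial-like cells with at least 3 UMIs of Top2a, Mki67 and Cenpf did not follow the sums: it was 26.1%, 43.9% and 44.6% as sequenced, where the mutant cells had a median of 10479 UMIs against 8761.5 and 8297.5, and 9.47%, 14.4% and 10.4% after thinning, so no order is read from it.

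Epithelial-like cells gave lower sums of both groups in the mutant as well. The replication genes summed to 967, 984 and 842 CPM (log2 ratio −0.21, gap 0.03) and the mitosis genes to 1712, 1838 and 1437 CPM (−0.30, gap 0.10). Of 39 members at the minimum level, 21 were below the controls by this rule, against 29.8% of 6331 genes, and 1 was above (Plk1, at 18.7, 20.2 and 21.2 CPM), against 11.8%. The median log2 ratio was −0.25, against −0.04 over all genes. Ube2c, the ubiquitin-conjugating enzyme of the anaphase promoting complex, stood at 209, 151 and 117 CPM (−0.61, gap 0.47), Pcna at 115, 102 and 79.5 CPM (−0.45) and Mki67 at 54.8, 60.0 and 41.3 CPM (−0.47). The mutant was the lowest library in all 3. With TMM factors 12 members were below and 6 above, where 19.1% and 23.3% of all genes were, and the median of all genes moved from −0.04 to 0.07.

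Myogenic progenitor-like cells of the mutant, in which Osr2-Cre does not act, had replication sums below, and mitosis sums above, those of both controls. The replication genes summed to 1641, 1815 and 1528 CPM (log2 ratio −0.18, gap 0.15) and the mitosis genes to 2332, 2668 and 2938 CPM (0.24, gap 0.19). The Poisson intervals of the mitosis sums were 2226 to 2442, 2511 to 2833 and 2770 to 3113 CPM, so that of the mutant overlapped with that of control 2. Those of the replication sums were 1553 to 1734, 1686 to 1952 and 1408 to 1656 CPM, and here the mutant overlapped with control 1. Of 42 members 8 were below the controls by the same rule, against 28.0% of 4928 genes, and 11 were above, against 19.8%. All 11 above were mitosis genes, and 6 of the 8 below were replication genes. The share of members below was under that of all genes, and the 6 of 18 replication genes were near it. The median log2 ratio was −0.06 for the replication genes and 0.22 for the mitosis genes, against −0.04 over all genes. By these values the replication genes did not stand out from all genes. The counts rest on 45, 42 and 46 cells. The 11 above became 7 with the mean over cells (19.5% of all genes) and 5 under the gate as first planned (13.4%), where the mitosis ratio was 1.03.

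Of the replication genes, Pcna stood at 177, 218 and 123 CPM, from 138, 88 and 48 UMIs (−0.68), and Ccne1 at 224, 248 and 174 CPM (−0.44). Cdt1, which loads the helicase, stood at 47.4, 39.7 and 20.5 CPM from 37, 16 and 8 UMIs (−1.08). Mcm5, Mcm7 and Ung were also below, as were the mitosis genes Aurka and Kif11, the latter from 29, 26 and 7 UMIs. Of the mitosis genes above, Birc5 stood at 245, 248 and 315 CPM from 191, 100 and 123 UMIs (0.36, gap 0.02) and Cenpa at 233, 250 and 328 CPM from 182, 101 and 128 UMIs (0.44). Bub1b, a spindle checkpoint kinase, stood at 19.2, 24.8 and 43.6 CPM, but from only 15, 10 and 17 UMIs (1.0). Ccnb1, Ccnb2, Cdk1, Cks2, Plk1, Cdc20, Ube2c and Tpx2 were also above. For each of these 11 genes the mutant was the highest library. The share of progenitors with at least 3 UMIs of Top2a, Mki67 and Cenpf differed between the mutant and the mean of the controls by −8.78 percentage points as sequenced and by 2.62 points after thinning.

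The same rule was applied to the 33 other cell cycle genes. Cyclin D1 (Ccnd1), which starts G1 progression, was above the controls in mesenchymal-like cells (155, 169 and 179 CPM), epithelial-like cells (48.8, 70.6 and 120 CPM, log2 ratio 1.04) and progenitor-like cells (94.9, 67.0 and 141 CPM, 0.82). Within the mesenchyme Ccnd1 was not above both controls in perimysial-like (150, 174 and 153 CPM) or midline-like cells (154, 168 and 161 CPM). Nor was it in osteogenic-like cells (174, 390 and 326 CPM) or the remaining mesenchyme (154, 147 and 138 CPM). In tendon-like cells it was above both (110, 91.6 and 152 CPM, from 9, 9 and 168 UMIs). In mesenchymal-like cells Ccnd2 and the inhibitor Cdkn1a were also above, the latter at 17.4, 18.0 and 24.8 CPM (0.48, gap 0.05). Below there were Ccnd3, Cdk4, Cdk6, Cdkn2c, E2f1, E2f4, Gmnn, Cdc25b, Cdc25c, Fzr1 and Fbxo5. Of these, Cdkn2c stood at 27.8, 27.5 and 17.6 CPM (−0.65, gap 0.02), and Cdc25c, a phosphatase that activates Cdk1, at 30.8, 32.3 and 21.5 CPM (−0.55, gap 0.07). Gmnn, which restrains Cdt1, stood at 50.3, 47.0 and 37.5 CPM. In epithelial-like cells Ccnd3, Cdk2, Cdkn1c (513, 615 and 909 CPM, 0.69) and Cdkn2d were also above, and Cdk4, Cdk6, Cdkn1a (260, 201 and 154 CPM, −0.57), Cdkn2b, E2f4 and Gmnn were below. Cdkn1a thus lay on opposite sides of the controls in mesenchymal-like cells as a whole and epithelial-like cells, a difference that was not tested. Within the mesenchyme the mutant was highest in osteogenic-like cells (38.8, 65.1 and 87.8 CPM), which held 55, 31 and 357 of the 187, 202 and 577 Cdkn1a UMIs. It was lowest in perimysial-like (15.5, 27.9 and 14.2 CPM), midline-like (10.6, 14.6 and 9.78 CPM) and the remaining mesenchyme (16.2, 12.6 and 11.7 CPM). In progenitor-like cells Ccnd3, Cdkn1c, Cdkn2d, E2f1, E2f4, Mybl2, Myc, Gmnn, Cdc25b, Wee1 and Fzr1 were below. Of these, Mybl2, a factor of S and G2 phase genes, stood at 28.2, 37.2 and 12.8 CPM (−1.34), but from only 22, 15 and 5 UMIs. Cdkn2d stood at 34.6, 42.2 and 20.5 CPM (−0.90), from 27, 17 and 8 UMIs.

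**Figure D5:**
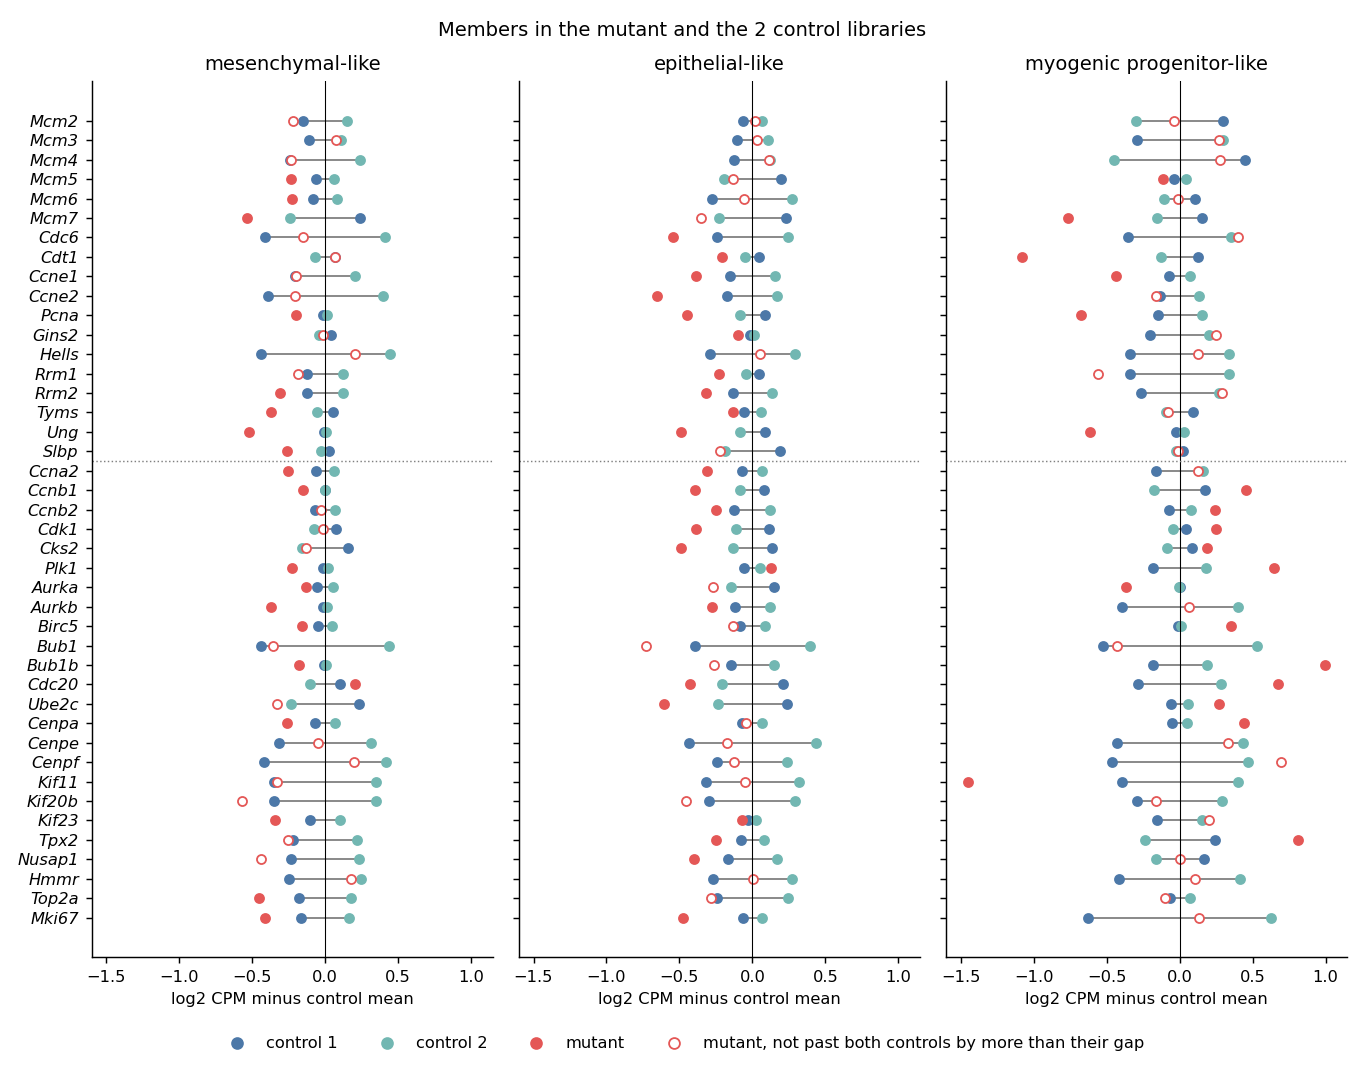
CPM of each of the 42 members in the mutant and in both control libraries, as log2 difference from the mean of the controls (x axis), in mesenchymal-like, epithelial-like and progenitor-like cells. Filled mutant points lie beyond both controls by more than their gap, including a few genes under the minimum of 20 CPM that the counts in the text leave out, and they lie mostly left of 0 in the first 2 panels and, for mitosis genes, right of 0 in progenitor-like cells.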

How the data were processed

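The authors dissociated the tissue with TrypLE, sequenced and counted reads with Cell Ranger; version 4.0.0 stands in the extract protocol and 3.1.0 in the submitters' processing notes, with genome build mm10. The deposited values are raw UMI counts per gene and barcode, without normalization. The members and lists were chosen with earlier results of these data known. The text names all 42 members by role, of 33 other cell cycle genes those past the controls and the inhibitors, and as non-members the 10 genes with the largest and the 10 with the smallest difference between cells with and without mitotic transcripts, of which 1 is not reported here.

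Barcodes were kept from 500 genes upward and up to 10% of mitochondrial UMIs, and the highest Scrublet scores (scanpy 1.11.5) were removed at a preset rate of 0.8% per 1000 barcodes (62, 157 and 638), since Scrublet's own threshold called 0, 0 and 1. A cell type needed at least 3 summed UMIs from at least 2 markers. A background condition was added after myocyte transcripts in control 1 were taken to carry other cells through the myocyte gate. A cell's share of marker UMIs also had to reach 5 times its library's 75th percentile (mesenchymal and erythroid gates apart). The gate as first planned, without this condition, is an alternative. Whether the transcripts were free RNA was not tested. Counts were summed per library and type. Contrasts between cell types used edgeR 4.0.16 (R 4.3.3) with TMM factors, quasi-likelihood and Benjamini-Hochberg at 0.05. Both types of a library come from the same tissue, so libraries pair them as a block, with 2 residual degrees of freedom. With this block, p-values rest on how far the difference between 2 cell types varied from library to library, with a dispersion partly shared over all genes. They do not measure the spread between embryos, whose number in each library was not given. DESeq2 1.42.0 was an alternative, as were other filters, gates and scalings and leaving out a library. Poisson and Clopper-Pearson intervals (95%) cover counting error only. A count of 0 allows up to 3 counts. The fits were tested on simulated data. Gene positions are GENCODE's and promoters RefSeq's on GRCm38.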

Additional observations from a re-analysis of the deposited data

Results flagged for a closer look

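For 9 mitosis genes the mutant lay beyond both controls by more than their gap in opposite directions in different cell types, mostly below them in mesenchymal-like or epithelial-like cells and above them in progenitor-like cells. The share of all genes with such opposite directions was not computed, so the count is not read as a result about the members. In mesenchymal-like, epithelial-like and progenitor-like cells, 26.2%, 29.8% and 28.0% of all genes were below, and 10.3%, 11.8% and 19.8% above. The difference between cell types was not tested for any of the 9 genes, since there was 1 mutant library, and groups of 2 and 1 libraries were too small for a check of single outlying samples. The log2 ratio of mutant to controls for Ccnb1, cyclin B1, was −0.15 in mesenchymal-like, −0.39 in epithelial-like and 0.46 in progenitor-like cells. For Cdc20 it was 0.20 in mesenchymal-like, −0.43 in epithelial-like and 0.67 in progenitor-like cells, so here the mesenchyme moved with the progenitors. Between epithelial-like and progenitor-like cells, Ccnb2 gave log2 ratios of −0.25 and 0.24, Cdk1 −0.38 and 0.25, Cks2 −0.49 and 0.19, Ube2c −0.61 and 0.27, and Tpx2 −0.25 and 0.81. Between mesenchymal-like and progenitor-like cells, Birc5 gave −0.16 and 0.36, and Cenpa −0.26 and 0.44. The progenitor values rest on 45, 42 and 46 cells.

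Among the other cell cycle genes, 4 showed the same kind of contrast. There too the share of all genes was not computed and the difference between cell types was not tested. The log2 ratio of mutant to controls for the inhibitor Cdkn1a was 0.48 in mesenchymal-like and −0.57 in epithelial-like cells. Within the mesenchyme the mutant was highest for Cdkn1a in osteogenic-like cells and lowest in perimysial-like, midline-like and the remaining mesenchyme. For Ccnd3 it was −0.22 in mesenchymal-like, 0.10 in epithelial-like and −0.18 in progenitor-like cells. Between epithelial-like and progenitor-like cells, Cdkn1c gave 0.69 and −0.11, and Cdkn2d 0.17 and −0.90, the latter from only 27, 17 and 8 UMIs.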

How the results depend on the processing

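Differences between genotypes rest on 1 mutant library and those in progenitor-like cells on 45, 42 and 46 cells, so depth limits single members there. Over all alternatives, 55 of 96 values of the cell type counts, 67 of 86 genotype counts, 52 of 60 log2 ratios of the sums and 26 of 33 shares stayed close to the reported value. The causes of the other values were not tested.

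Members called lower in myocyte-like than progenitor-like cells numbered 27 as reported, 4 with DESeq2 and 17 to 23 with 1 library left out. They numbered 4 with the gate as first planned, which lacked the background condition added after the data were seen. Without the library block they numbered 10, and 0 were called higher under any setting run. In epithelial-like against mesenchymal-like cells, 2 higher and 9 lower became 0 and 5 with DESeq2, 0 and 2 without the library block, and 0 to 1 and 0 to 10 with 1 library left out; 1 was higher with no filter on low counts, with doublets kept and with all ungated cells taken as mesenchymal-like. In perimysial-like cells, 2 lower became 0 with DESeq2, without the library block, with gates of 5 UMIs, with the gate lacking the background condition and with ungated cells included, 5 with no filter, 4 with doublets kept and 0 to 8 with 1 library left out. In osteogenic-like cells, 2 higher became 0 without the library block, 1 with DESeq2, no filter, gates of 5 UMIs and the gate lacking the background condition, and 1 to 2 with 1 library left out. The 2 lower there became 0 with DESeq2, without the library block, with the gate lacking the background condition and with ungated cells, 1 with DESeq2 size factors or doublets kept, and 0 to 2 with 1 library left out. Higher mitosis genes in progenitor-like than mesenchymal-like cells went from 13 to 2 with the gate lacking the background condition, and lower ones ranged from 0 to 3 with 1 library left out. Among these comparisons, shares of all genes under the alternatives are given above for myocyte-like cells only.

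For the genotypes, TMM factors gave 11 below and 3 above in mesenchymal-like cells (17 and 1 reported) and 12 and 6 in epithelial-like cells (21 and 1 reported). The mean over cells gave 5 and 2 in mesenchymal-like and 7 above in progenitor-like cells (11 reported), and the gate lacking the background condition gave 5 below in mesenchymal-like, 0 above in epithelial-like and 5 above in progenitor-like cells. The single member above became 0 in mesenchymal-like and epithelial-like cells with doublets kept, gates of 5 UMIs or thinned libraries, and in epithelial-like cells with a minimum of 200 genes. The log2 ratios of the sums under TMM were −0.07 for replication (−0.20 reported) and −0.09 for mitosis (−0.22) in mesenchymal-like cells, and −0.10 (−0.21) and −0.20 (−0.30) in epithelial-like cells. The mesenchymal mitosis ratio was −0.36 with gates of 5 UMIs and −0.05 as a mean over cells. The gate lacking the background condition gave −0.11 for epithelial replication and 1.03 (0.24 reported) for progenitor mitosis. The share of cells with at least 3 UMIs, mutant minus controls, was 2.19 points in mesenchymal-like, −1.83 in epithelial-like and −8.78 in progenitor-like cells, and −12.0, −16.9 and −14.8 with the other mitosis members. In progenitor-like cells it was −10.5 and −5.76 at thresholds of 2 and 5 UMIs, and turned to 2.62 after thinning and 4.55 with the gate lacking the background condition. Counts against the controls without a control could not be computed, since 1 control has no gap. No paired analysis was possible between genotypes because the mutant has 1 library.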

Other observations

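Outside the members, mesenchymal-like cells with at least 3 UMIs of Top2a, Mki67 and Cenpf held more of Prc1, which bundles the central spindle, at 139, 165 and 130 CPM against 6.08, 6.37 and 4.41 CPM in cells with 0. The replication-dependent histone gene Hist1h2ap stood at 3386, 3484 and 804 CPM in cells with mitotic transcripts and at 86.4, 148 and 31.6 CPM in those without, so the mutant library was lower on both sides while the log2 difference within a library was alike (5.29, 4.55 and 4.67). Cep55, Esco2, Fam83d, Depdc1a, Cdca2, Gas2l3 and Kif2c were among the other genes with the largest positive differences. The genes with the largest negative differences were Tmem150a, Ogn, Aspn, Fkbp11, Selenop, Gm9856, B3gnt9, Acadvl, Dnajb9 and Gpr180. Of these, Ogn stood at 77.6, 106 and 120 CPM against 136, 177 and 207 CPM, and Aspn at 145, 186 and 169 CPM against 241, 355 and 312 CPM. These are descriptions of cells grouped by their own transcripts. E2f1, a driver of replication genes, stood at 41.8, 17.9 and 11.1 CPM in mesenchymal-like cells, and in progenitor-like cells at 51.3, 19.8 and 7.69 CPM, with control 1 far above both other libraries. The progenitor values rest on only 40, 8 and 3 UMIs.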
